A study of Arabidopsis thaliana with 23 samples.

Results

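Transcripts whose signal stood apart in cortex/endodermis initial (CEI) cells of the Arabidopsis root are described here. A probe set was a member when the lowest of the 3 CEI arrays was at least 100 units of signal and at least 2 times the highest of the 20 time-course arrays. Of 22746 probe sets, 38 met this rule, which is 0.167%. The rule used the CEI values and the time-course values, so members were chosen by the signal itself and the gap is a description and carries no test.

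The study measured RNA on Affymetrix ATH1 arrays, which carry short probes for most Arabidopsis genes. The CEI samples came from seedlings with the CYCD6 marker driving GFP, kept on standard medium, with 3 biological replicates. The time-course samples came from plants with inducible SHR and from plants with inducible SCR, called the SHR line and the SCR line below. They were taken at 0, 1, 3, 6 and 12 h after transfer to medium with 1 µM dexamethasone (Dex), with 2 biological replicates per time and line, which gives 10 arrays per line. All seedlings were labelled Columbia and 5 days old, and the time-course cells were labelled as sorted with J0571, an enhancer trap that marks the ground tissue. Per the labels, CEI samples and time-course samples differed in marker, in inducible transgene, in medium and in the cells taken, and these cannot be told apart in any comparison of CEI with the time course. The labels also disagree on the material, since the source names give sorted cells and the protocol text of every sample describes cut roots. In bulk samples, fewer cells of a type and less RNA per cell cannot be told apart. Seedlings kept off Dex over the same hours were not analysed here.

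The CEI cell divides asymmetrically to give the 2 ground tissue layers of the root, cortex and endodermis. SHORT-ROOT (SHR) is a GRAS transcription factor that moves from the stele into the adjacent layer, where it acts with SCARECROW (SCR), another GRAS factor. Together they are known to activate CYCD6;1, a D-type cyclin, in the CEI and its daughter, and the CYCD6 marker reports that activity. Growth of root cells depends on wall-loosening proteins such as expansins and xyloglucan endotransglucosylases, and root stem cells depend on AP2-type factors of the PLETHORA clade.

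The label of the CEI cells could be checked only in part. SHR, SCR and CYCD6;1 themselves had no named probe set in the annotation used and were not analysed here. Of 142 genes on 15 marker lists, 23 were named on the array, and xylem, root cap, heat shock and seed storage genes were not among them. BBM was the 1 member on a list. On summed signal, the 4 named SHR/SCR pathway genes gave 504 to 527 units in CEI cells, 201 to 1005 in SHR-line samples and 264 to 841 in SCR-line samples, so the ranges overlapped. The named cortex genes gave 345 to 592, 477 to 2167 and 723 to 2064 units in the same 3 sets, and the named endodermis barrier genes gave 526 to 688, 193 to 1008 and 612 to 2216. The pair of named touch, wound and stress genes, WRKY53 and STZ, gave 326 to 469 units in CEI cells, 1464 to 6886 in SHR-line samples and 1378 to 3845 in SCR-line samples, without overlap. Taken alone, WRKY53 did overlap, at 27.1 to 88.6 units in CEI cells and 76.2 to 1091 over the time course. Of the named procambium genes, LHW read 1527 to 1708 units in CEI cells, above its 235 to 1296 over the time course, while PHV read 36.5 to 62.9 units in CEI cells, against 39.8 to 154 over the time course. The named mitotic kinases AUR1 and AUR2 gave 1043 to 1389 units, 178 to 1071 and 163 to 923, so CEI and SHR-line ranges overlapped. Taken alone, AUR1 overlapped too, at 537 to 741 units in CEI cells and 96.1 to 646 over the time course. The part of these other genes in the values of the members was not tested.

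All 23 arrays had been scaled to nearly the same level. Their median signal lay between 62.9 and 79.9, and each array's mean correlation with the others lay between 0.905 and 0.954. The CEI arrays lay at 0.905 to 0.919 and SCR 6 h replicate 1 at 0.906, while every other time-course array was at 0.926 or above. SCR 6 h replicate 1 also had the lowest median signal, and it is the array left at that time where replicate 2 is left out below. With 2 or 3 arrays a group, precision is limited by their number.

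Across the 38 members, the mean CEI signal ran from 115 to 2242 units with a median of 399, and the mean over the time course ran from 9.02 to 586 with a median of 58.8. Summed over the members, the signal was 19152 to 21750 on the CEI arrays, 2604 to 5295 on the SHR-line arrays and 2546 to 4886 on the SCR-line arrays. The fold of the CEI mean over the time-course mean was 3.40 to 22.5, with a median of 6.05. The ratio used by the rule, lowest CEI over highest time-course signal, had a median of 2.67 and ran from 2.00 to 6.83. It was at least 3 for 11 members and under 2.5 for 17. The coefficient of variation over the 3 CEI arrays had a median of 13.97% among members, against 17.58% over the 9032 probe sets whose lowest CEI signal was at least 100. The rule used the lowest of these 3 arrays, which favours probe sets whose CEI arrays agree, so this gap carries no test either.

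**Figure D1:**
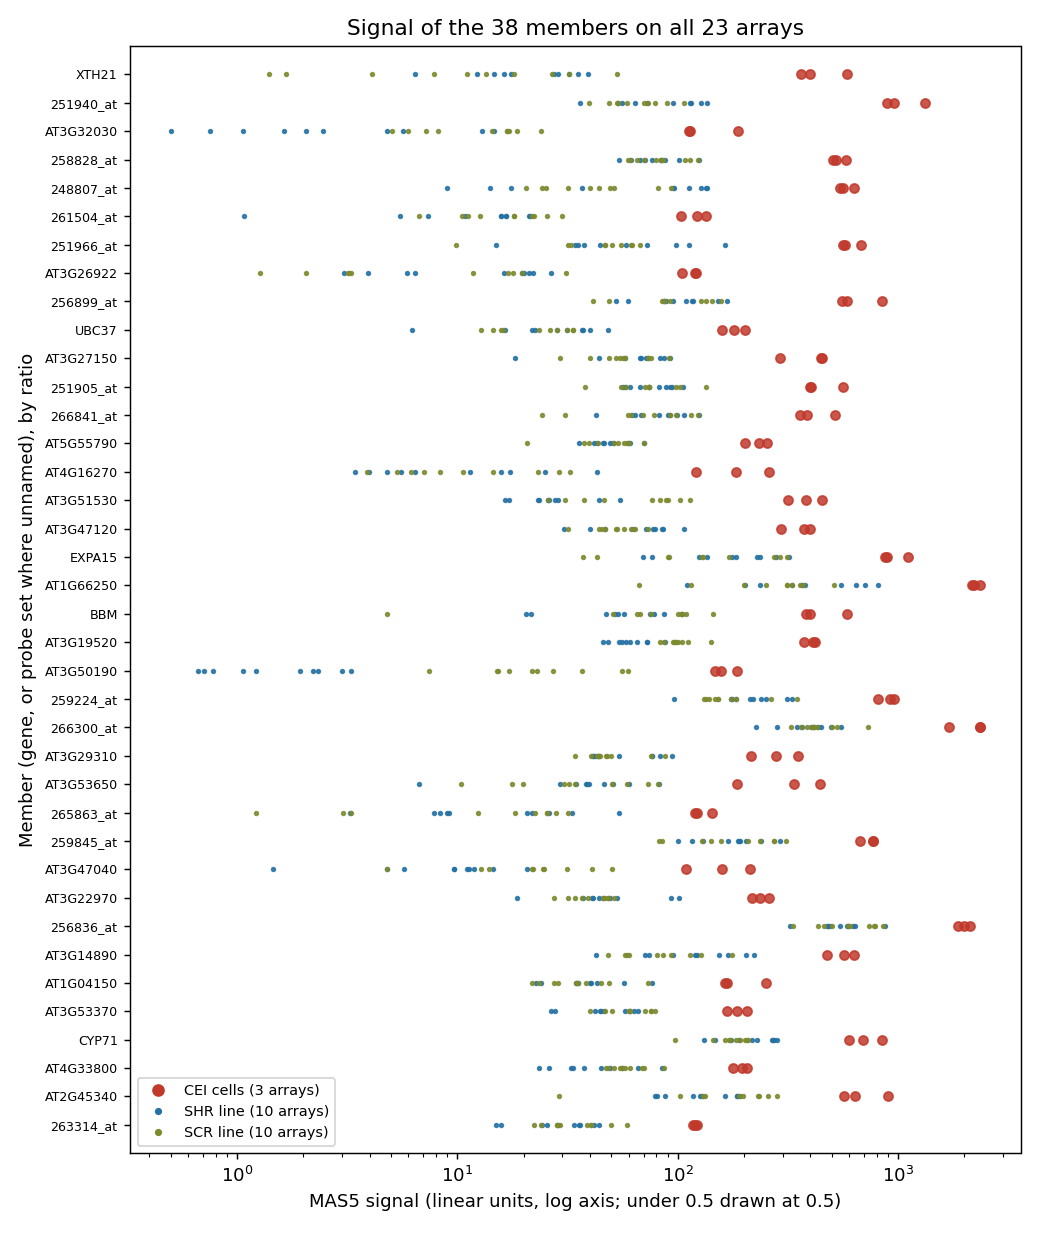
MAS5 signal in linear units on a log axis for each of the 38 members, in order of the ratio of lowest CEI to highest time-course signal, with 3 CEI arrays, 10 SHR-line arrays and 10 SCR-line arrays as points. The CEI points lie right of every time-course point in each row, as the rule demands, while the time-course points of most members spread widely, as for AT3G50190 between 0.666 and 59.3 units.

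Low readings in the time course were common. The 40th percentile of an array lay between 30.97 and 43.55 units, and 33 of 38 members were above their own array's 40th percentile on at least 2 time-course arrays. The 5 that were not include AT3G32030, AT3G26922 and AT4G16270. For 9 members the time-course mean was under 30.97 units, so folds against it rest on values where an order between arrays means little.

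Of the 38 probe sets, 24 are annotated to 1 gene, 14 have no gene in the annotation used and none names several. By gene ID, 23 of the 24 matched the RefSeq table of assembly TAIR10.1, and AT3G53650 was placed by its locus name. The named genes are described by what they encode.

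Enzymes and proteins of the cell wall held the largest ratio and the largest mean CEI signal. XTH21 (AT2G18800), a xyloglucan endotransglucosylase/hydrolase that cuts and rejoins xyloglucan chains, read 400, 363 and 588 units on the 3 CEI arrays (451 ± 121, SD, n = 3), against a lowest of 1.40, a median of 16.9 and a highest of 53.2 over the time course. Its ratio of 6.83 was the highest of the members. EXPA15 (AT2G03090), an expansin that loosens walls, read 888, 1108 and 874 units in CEI cells (957 ± 131, SD, n = 3), and 37.1, 154 and 321 as lowest, median and highest of the time course. AT1G66250, a glycosyl hydrolase of the kind that acts on beta-glucans such as callose, had the highest CEI mean of the members, with 2209, 2170 and 2347 units (2242 ± 93.1, SD, n = 3), against 66.9, 331 and 812 in the time course.

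A pair of other enzymes of the same compartment read lower. AT3G47040, another glycosyl hydrolase, gave 159, 212 and 109 units in CEI cells (160 ± 51.6, SD, n = 3), against lowest, median and highest values of 1.45, 10.4 and 20.6 in SHR-line samples and 4.80, 23.3 and 50.5 in SCR-line samples. AT4G16270, a class III peroxidase, gave 121, 259 and 184 units in CEI cells (188 ± 68.9, SD, n = 3), against 3.41, 9.45 and 43.0 in the time course. For both, the 3 CEI arrays differed among themselves by about as much as their mean stood above the highest time-course array.

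Among regulators, BBM (AT5G17430), an AP2-type factor of the PLETHORA clade that acts in the root stem cell niche, read 589, 384 and 397 units in CEI cells (456 ± 115, SD, n = 3). Its time-course arrays ran from 4.78 through a median of 71.3 to 144. AGL42, the other named gene of the stem cell niche list and no member, read 54.9 ± 12.4 units in CEI cells (SD, n = 3), against 1.88 to 55.4 over the time course, so its groups overlapped. AT2G45340, a leucine-rich repeat receptor-like kinase, read 900, 641 and 570 units in CEI cells (704 ± 174, SD, n = 3), against 28.9, 149 and 282 in the time course. Its ratio of 2.02 puts it near the threshold.

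Members tied to chromatin, DNA repair and protein turnover included CYP71 (AT3G44600), a cyclophilin with WD40 repeats that acts on chromatin. It read 696, 845 and 598 units in CEI cells (713 ± 124, SD, n = 3), against 97.3, 191 and 282 in the time course. AT3G14890, a DNA 3′-phosphatase of single-strand break repair, read 568, 633 and 475 units in CEI cells (559 ± 79.5, SD, n = 3), with 42.7, 122 and 222 as lowest, median and highest in SHR-line samples and 48.2, 82.9 and 177 in SCR-line samples. UBC37 (AT3G24515), a ubiquitin-conjugating enzyme, read 203, 180 and 160 units (181 ± 21.4, SD, n = 3), against 6.22, 27.3 and 48.1 in the time course. The core histone gene AT3G53650 varied most among these on the CEI arrays, with 444, 186 and 337 units (322 ± 130, SD, n = 3), and read 6.73, 38.5 and 82.6 in the time course. Histone genes are a family of near-identical copies, so the probes may read more than 1 gene.

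The other members with high ratios carry no role stated here. AT3G32030 read 113, 113 and 187 units in CEI cells (138 ± 42.8, SD, n = 3), against 4.65 ± 5.11 in SHR-line samples and 13.4 ± 6.39 in SCR-line samples (SD, n = 10 arrays each, over 5 times), and was above its array's 40th percentile on none of the 20 time-course arrays. The suffix of its probe set marks probes shared with similar sequences. AT3G26922 read 119, 122 and 105 units in CEI cells, with a time-course highest of 31.1. AT3G27150 read 453, 449 and 291 units, with a highest of 92.4, and AT3G51530 read 454, 315 and 382, with a highest of 113. AT5G55790 and AT3G47120 had highest time-course values of 70.3 and 107, under CEI values of 254, 202 and 233 units for AT5G55790 and 400, 374 and 293 for AT3G47120. CEI readings of AT3G19520 were tight at 373, 410 and 420 units (401 ± 25.0, SD, n = 3), against a highest of 142. Those of AT3G50190 were 186, 148 and 157 units (164 ± 19.8, SD, n = 3), against a highest of 59.3. AT3G29310 had 281, 352 and 216 units, with a highest of 94.0. Among probe sets without a gene name, the one with the highest ratio read 1323, 958 and 892 units in CEI cells and at most 136 in the time course, and the next read 580, 525 and 505 units and at most 126.

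The remaining named members had ratios under 2.5. AT3G22970 read 218, 237 and 259 units in CEI cells, with a highest time-course value of 101, AT1G04150 read 168, 251 and 164, with a highest of 76.5, and AT3G53370 read 207, 168 and 186, with a highest of 78.6. The rule cuts through a continuous range of ratios. Just inside it lay AT2G45340 (lowest CEI 570 against highest time course 282), AT4G33800 (179 against 86.5) and CYP71 (598 against 282). Just outside lay AT1G54050 (1698 against 861, ratio 1.97), AT4G20320 (259 against 132, ratio 1.96) and AT2G04480 (153 against 78.7, ratio 1.94). A further 5 probe sets had a ratio of at least 2 with a lowest CEI signal under 100.

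The members shared a chromosome more often than the array as a whole. Of the 24 with a gene, 15 lay on chromosome 3 (62.5%), 2 on chromosome 1, 3 on chromosome 2, 2 on chromosome 4 and 2 on chromosome 5. Of 13415 probe sets with 1 gene, 2756 lay on chromosome 3 (20.5%). The share went with the ratio: among probe sets with a lowest CEI signal of at least 100, chromosome 3 had 20.7% of the 4195 with a ratio under 1, 21.1% of the 355 between 1 and 1.25, 35% of the 100 between 1.25 and 1.5, 37.9% of the 58 between 1.5 and 2, and 62.5% of the 24 members. The last 2 of these bands hold few genes. The 14 members without a gene name have no chromosome here and could move the share either way.

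**Figure D2:**
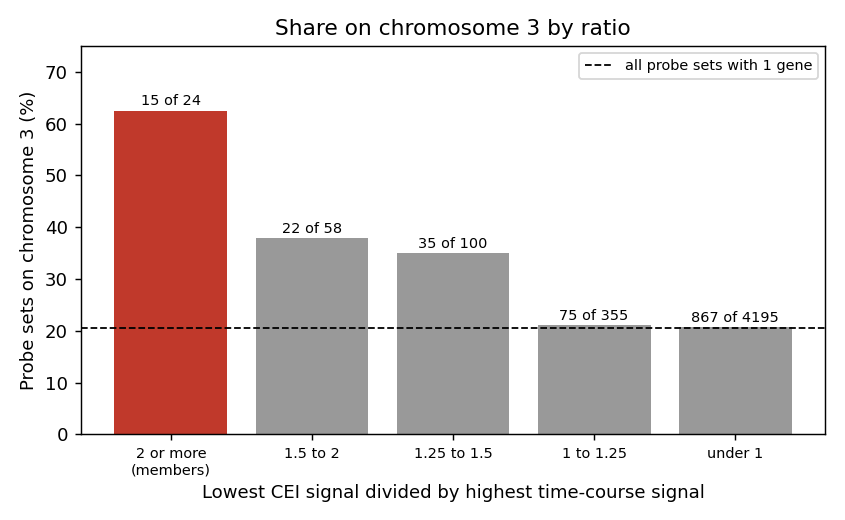
Percentage of probe sets with 1 gene that lie on chromosome 3, in 5 bands of the ratio of lowest CEI to highest time-course signal, for probe sets with a lowest CEI signal of at least 100. The dashed line is the 20.5% of all probe sets with 1 gene, and the bars stand near it below a ratio of 1.25 and reach 62.5% at a ratio of 2 and over.

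J0571 belongs to an enhancer-trap collection made in the accession C24, while the labels give Columbia for every sample. Whether the time-course lines carry segments of another accession on chromosome 3 was not tested.

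The opposite set did not have this share. When the rule was turned round, so that the highest CEI signal lay at least 2 times under a time-course lowest of at least 100, 98 probe sets passed, and 9 of the 50 with a gene lay on chromosome 3 (18.0%). The median log2 difference between CEI and time-course means over probe sets other than members was 0.10, 0.07, 0.14, 0.09 and 0.09 on chromosomes 1 to 5. With each line alone the share was above the 20.5% of all probe sets with 1 gene and below that of the members. With the SHR-line arrays alone 73 probe sets passed the rule and 26 of 48 with a gene were on chromosome 3 (54.2%), and of the 24 that were not members 11 were (45.8%). With the SCR-line arrays alone 120 passed and 29 of 68 were (42.6%), and of the 44 that were not members 14 were (31.8%). Both rules use the same 3 CEI arrays, and all 38 members pass each of them by construction.

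Along chromosome 3 the placed members lay in 7 of 10 stretches of gene order, with the most in its middle and none at either end. Of the 15, 14 have a place in the RefSeq gene order. Over 10 stretches of 253 or 254 probe sets each, the numbers of members were 0, 0, 1, 1, 2, 4, 3, 2, 1 and 0. The closest were AT3G47040 and AT3G47120 with 7 protein-coding genes between them, and AT3G26922 and AT3G27150 with 25. All other neighbouring members were 103 to 516 genes apart. Neighbours were the nearest 2 probe sets with 1 gene on each side of a member. Members were left out of them, so no neighbour could meet the rule. Of these 92 neighbours, 10 had all CEI arrays above all time-course arrays (10.9%), against 4.65% of all probe sets with 1 gene that were not members. Beside members on chromosome 3 the count was 5 of 56 (8.93%), against 6.20% of the other probe sets of that chromosome. Most of these neighbours did not have every CEI array above every time-course array. The median log2 difference between CEI and time course was 0.15 over the neighbours and 0.10 over the other probe sets.

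**Figure D3:**
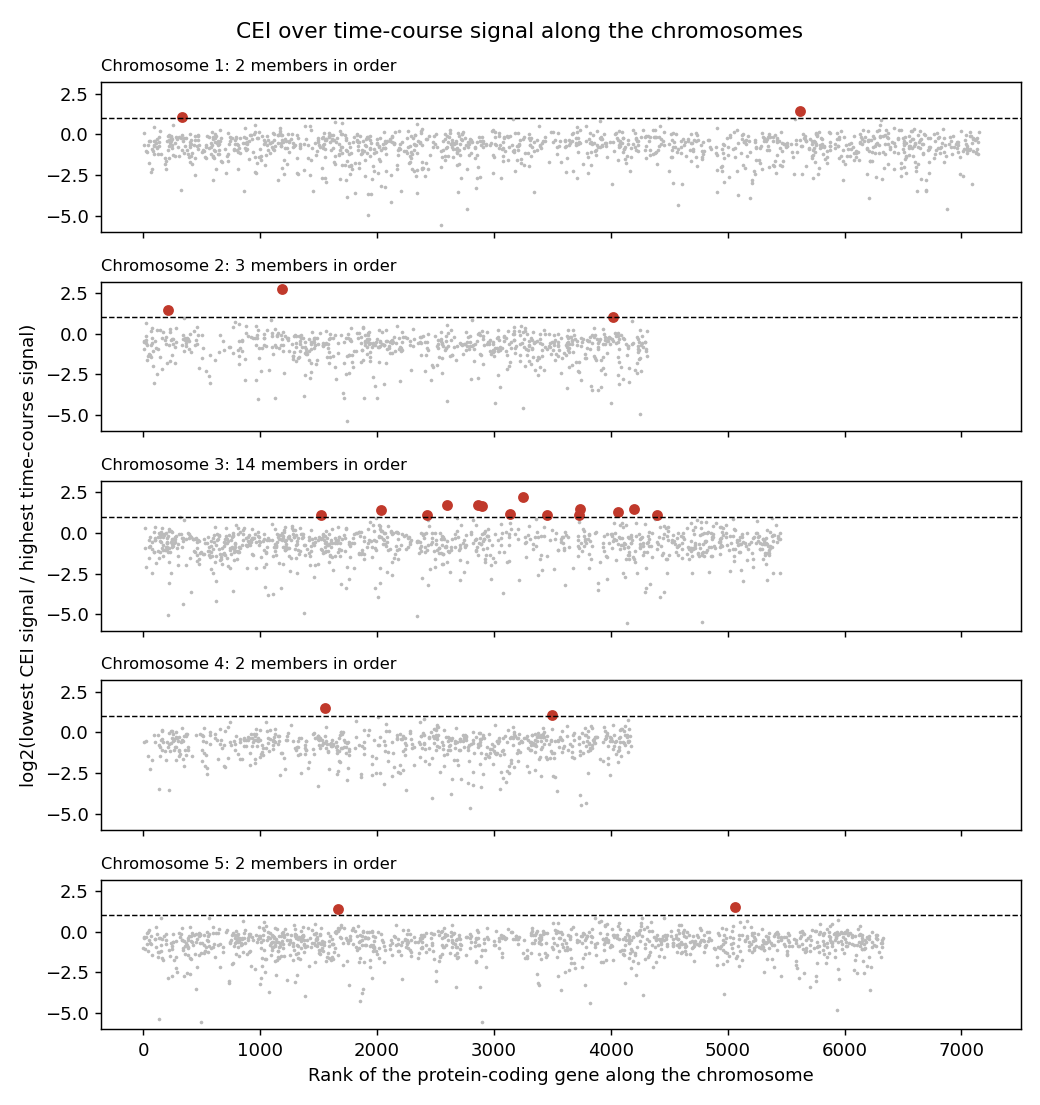
Log2 of the ratio of lowest CEI to highest time-course signal against the rank of each protein-coding gene along chromosomes 1 to 5 in the RefSeq order, with members as large points and other probe sets as small grey ones. The dashed line at 1 is the ratio of 2 that the rule asks for, and the 14 placed members of chromosome 3 lie at intervals over its middle and right while the other chromosomes carry 2 or 3 each.

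Within the time course, the rule treats the 20 arrays alike, so their order is open to test. The highest of the 20 arrays was an SHR-line 12 h array for 16 of 38 members (42.1%), which is more than the 22.8% over all probe sets. It was less than the 53.2% over the 1003 probe sets whose lowest CEI signal was at least 100 and 1 to 2 times the highest time-course signal, so it is not particular to the members. Without replicate 1 of that time point the count was 9, and without replicate 2 it was 8. The SCR line at 0 h held the highest array for 6 members (15.8%, against 7.01% over all probe sets).

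No member passed the adjusted test against 0 h, though single members moved by several times their standard error. In SHR-line samples their median log2 difference from 0 h was -0.40, 0.08, 0.23 and 0.37 after 1, 3, 6 and 12 h, against -0.13, -0.00, 0.01 and 0.02 over all tested probe sets. At 12 h 34 of 38 members were above 0 h, against 51.4% of all tested probe sets and 875 of the 1003 probe sets with a ratio of 1 to 2. Without SHR 12 h replicate 2 it was 27 of 38, the lowest count with 1 array left out. With the filter on the time-course arrays alone it was 31 of 33. In SCR-line samples the medians were -0.27, -0.23, -0.24 and -0.22 at 1, 3, 6 and 12 h, against -0.06, -0.05, -0.04 and -0.11, and 15 of 38 were above 0 h at 12 h. In limma with Benjamini-Hochberg adjustment over 15983 tested probe sets, 0 of 38 members passed an adjusted p of 0.05 at any time in either line. Over all tested probe sets the passing share was 0% at 1, 3 and 12 h and 0.0125% at 6 h in SHR-line samples, and 0% at 1, 3 and 6 h and 0.00626% at 12 h in SCR-line samples. At an unadjusted p under 0.05 the SHR-line counts of members were 3, 1, 1 and 8 at the 4 times and the SCR-line counts were 4, 1, 5 and 3. Over all 15983 tested probe sets the counts were 2549, 439, 508 and 1406 in SHR-line samples. In SCR-line samples they were 1181, 290, 840 and 1236. The 8 members at 12 h in SHR-line samples were all higher than at 0 h. They are 8 of 38 where 8.80% of all tested probe sets reached the same unadjusted level. The 3 in SCR-line samples at 12 h stand beside 7.73%. The lowest unadjusted p at 12 h in SHR-line samples was that of a probe set with no gene name, chosen for mention after its values were seen. It read 136 and 128 units at 12 h, against 17.5 and 37.0 at 0 h (1.98 ± 0.47, SE, limma adjusted p = 0.295), and 634, 545 and 564 on the CEI arrays. Without either array of SCR 6 h some members were called against 0 h. Without replicate 2 most of these were lower at 6 h in SCR-line samples, where calls over all tested probe sets rose as well.

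**Figure D4:**
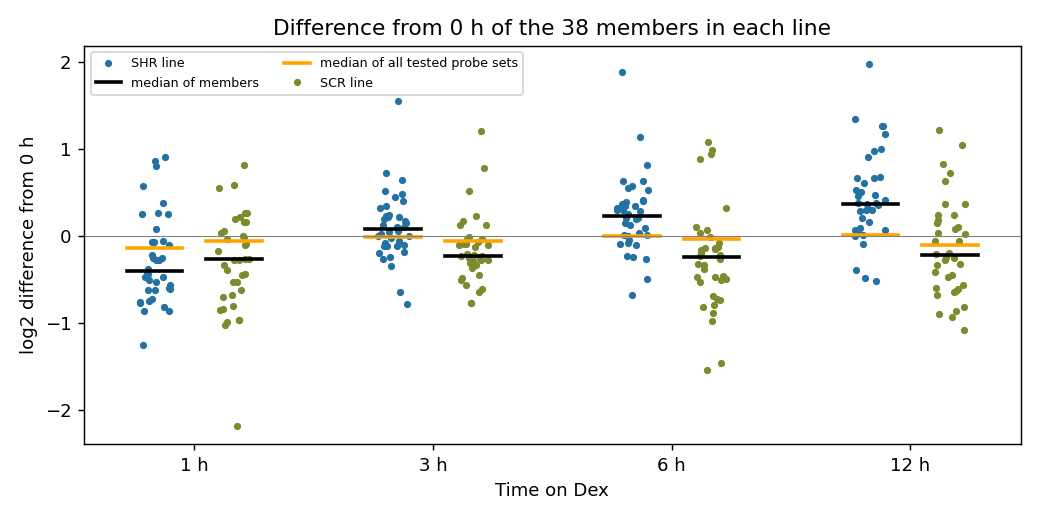
Log2 difference from 0 h of each of the 38 members at 1, 3, 6 and 12 h, with the SHR line left of the SCR line at each time, a black bar at the median of the members and an orange bar at the median of all tested probe sets. The member median in SHR-line samples is -0.40 at 1 h and 0.37 at 12 h, while in SCR-line samples it stays between -0.27 and -0.22.

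Values of the most abundant wall genes at 12 h show the size of these shifts. In SHR-line samples AT1G66250 read 648 and 812 units at 12 h, against 331 and 236 at 0 h, a log2 difference of 1.35 ± 0.56 (SE, limma adjusted p = 0.537). In SCR-line samples it read 314 and 370 units at 12 h, against 312 and 331 at 0 h, a difference of 0.08. Both SHR-line 12 h arrays lay above both 0 h arrays, and all CEI arrays lay above them. EXPA15 read 230 and 321 units at 12 h, against 136 and 125 at 0 h, in SHR-line samples (1.00 ± 0.44, SE, limma adjusted p = 0.550), and 130 and 90.6 units, against 172 and 274, in SCR-line samples (-0.93). At 1 h in SCR-line samples EXPA15 read 37.1 and 43.0 units, a log2 difference of -2.19 ± 0.44 from 0 h (SE, limma adjusted p = 0.212). BBM read 86.5 and 105 units at 12 h, against 78.1 and 52.1 at 0 h, in SHR-line samples, and 65.3 and 67.7 units, against 110 and 104, in SCR-line samples. XTH21 stayed at or under 53.2 units on every time-course array, and its 12 h differences of -0.48 in SHR-line samples and 0.83 in SCR-line samples are between values near the floor.

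The difference between the lines in the change from 0 h to 12 h had a median of 0.50 over members, against 0.11 over all tested probe sets and 0.73 over the probe sets with a ratio of 1 to 2. It was above 0 for 30 of 38 members, and 0 of 38 passed in limma, where 0% of all tested probe sets did. At an unadjusted limma p under 0.05 there were 7 of 38 members, against 1944 of the 15983 tested probe sets. EXPA15 (1.94 ± 0.63, SE) and AT3G14890 (1.81 ± 0.57, SE) had the lowest limma adjusted p of the members, 0.353 for each. The moderated F-test over the 4 contrasts with 0 h called 0 of 38 members in SHR-line samples, where 0.0188% of tested probe sets passed, and 0 of 38 in SCR-line samples, where 0% did. Without SCR 6 h replicate 2 the interaction and the F-tests called some members, and calls over all tested probe sets rose as well. Without SCR 6 h replicate 1 the same held for the F-tests. The F-tests also called a member when either 3 h array of either line was left out. At an unadjusted p under 0.05 the F-test over all arrays gave 6 of 38 members in SHR-line samples and 2 in SCR-line samples. Over the 15983 tested probe sets it gave 2756 and 547.

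**Figure D5:**
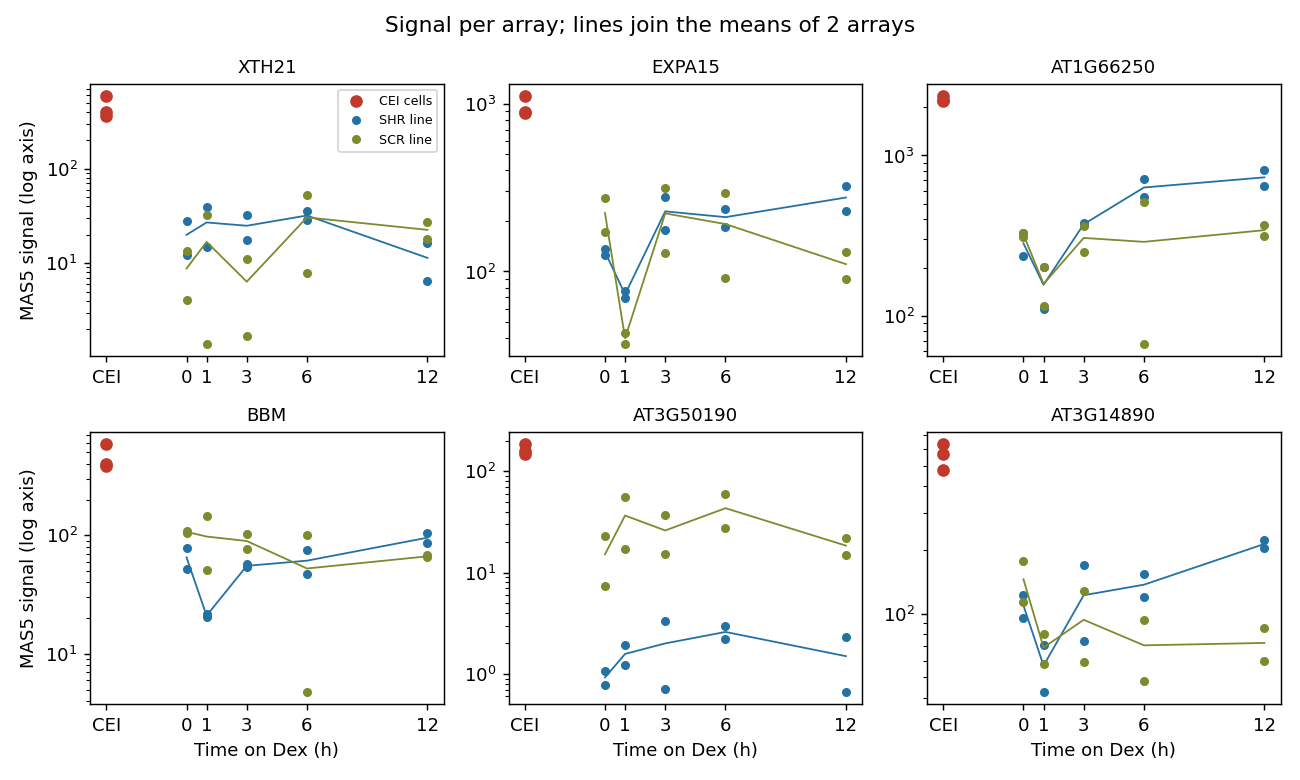
MAS5 signal on a log axis for XTH21, EXPA15, AT1G66250, BBM, AT3G50190 and AT3G14890, with the 3 CEI arrays at the left and the SHR-line and SCR-line arrays at 0, 1, 3, 6 and 12 h on Dex, where lines join the means of 2 arrays. AT3G50190 lies lower on all SHR-line arrays than on all SCR-line arrays, and AT3G14890 lies apart between the lines at 12 h.

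Averaged over the 5 times, 5 of 38 members were lower in SHR-line samples than in SCR-line samples in limma, and 0 of 38 were higher. Over all tested probe sets 10.3% were lower and 12.3% were higher, so the 5 lower members (of 38) are near the background for lower calls and no member stands in the higher direction. At an unadjusted limma p under 0.05 there were 9 of 38 members, against 5845 of the 15983 tested probe sets. The median difference was 0.09 over members and 0.08 over all tested probe sets. All 5 called members lie on chromosome 3, which makes 5 of its 15 members, against 11.6% of the 1786 tested probe sets of chromosome 3 and 8.55% to 9.70% of those on the other chromosomes. Of the 5 called, AT3G32030 entered the test only through its CEI arrays, which the rule had made high. With the filter on the time-course arrays alone, 33 members were tested and 4 were called, all lower. None of the 9 named members on other chromosomes was called in the comparison over all arrays. Without SCR 6 h replicate 2, members were called in both directions, and calls over all tested probe sets rose as well. Fewer members were called without SHR 0 h replicate 2, SCR 0 h replicate 2 or SCR 1 h replicate 1.

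AT3G50190 had the largest difference. On the 10 SHR-line arrays it read 0.666 to 3.30 units with a median of 1.58, and on the 10 SCR-line arrays 7.40 to 59.3 with a median of 22.4. It was the 1 member whose SHR-line arrays all lay under all SCR-line arrays, which 0.701% of tested probe sets also did, and its log2(signal + 10) difference was -1.57 ± 0.21 (SE, limma adjusted p = 0.000104). At 0, 1, 3, 6 and 12 h the difference was -1.13, -1.87, -1.53, -2.01 and -1.30. Since SHR-line values were near 0, the pseudocount of 10 sets the size of this difference.

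AT3G51530 read 16.4 to 54.5 units with a median of 25.8 in SHR-line samples, and 25.7 to 113 with a median of 79.9 in SCR-line samples (-0.97 ± 0.21, SE, limma adjusted p = 0.00423). At 12 h the lines overlapped, with 27.8 and 54.5 units in SHR-line samples and 76.3 and 25.7 in SCR-line samples. AT3G19520 read 45.8 to 87.3 units with a median of 59.4 in SHR-line samples, and 83.0 to 142 with a median of 97.4 in SCR-line samples (-0.64 ± 0.13, SE, limma adjusted p = 0.00204), and 1 SHR-line array, at 87.3, reached the SCR-line range. These 3 genes kept their call under each of the 31 alternative settings or omissions tried.

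The other 2 calls were less firm. AT3G32030 differed by -0.69 ± 0.22 (SE, limma adjusted p = 0.0296) and AT3G47040 by -0.74 ± 0.24 (SE, limma adjusted p = 0.0387), both at signals under the 40th percentile on most time-course arrays. AT3G32030 was above it on none of them, so only its CEI arrays brought it into the test. Of the 23 fits that each left out 1 array, 9 ended the call of AT3G32030 (differences of -0.58 to -0.70, adjusted p up to 0.0725). These left out SHR 0 h, 1 h or 3 h replicate 2, SHR 6 h replicate 1, SCR 1 h or 6 h replicate 1, or SCR 0 h, 3 h or 12 h replicate 2. The call of AT3G47040 ended in 13 (-0.60 to -0.76, adjusted p up to 0.0930), those without either array of SHR 0 h, SCR 0 h or SCR 12 h, without replicate 1 of 1 h or 3 h in either line, without SHR 12 h replicate 1, or without replicate 2 of 6 h in either line. With a pseudocount of 50 neither was called, at -0.21 for AT3G32030 and -0.30 for AT3G47040, nor without the 12 h arrays (adjusted p = 0.0810 for AT3G32030 and 0.144 for AT3G47040). In the fit of the 20 time-course arrays alone the call of AT3G47040 ended (adjusted p = 0.0563).

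At single times, 0 of 38 members differed between the lines at 0, 1, 3 or 6 h, where 0.00626%, 0.138%, 0.144% and 0.325% of tested probe sets passed. At 12 h 1 did, where 13.2% of all tested probe sets passed, 5.87% higher and 7.38% lower. This was AT3G14890, with 205 and 222 units in SHR-line samples and 60.0 and 85.4 in SCR-line samples (1.45 ± 0.40, SE, limma adjusted p = 0.0283). The call was lost when any 1 of these 4 arrays was left out, with differences of 1.23 to 1.67. At 0 h its values were 95.3 and 123 units in SHR-line samples and 114 and 177 in SCR-line samples, which overlap. More members were called at single times when either SCR 6 h array was left out, and calls over all tested probe sets at 12 h rose as well. Leaving out replicate 1 of SCR 1 h or either array of SCR 3 h also gave more.

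A control moved with the line as well. The mean of the array's dap control probe sets was 90.3 to 666 units on the SHR-line arrays, 1.70 to 6.88 on the SCR-line arrays and 4.78 to 9.34 on the CEI arrays. Line and whatever set this control apart cannot be told apart in these samples.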

How the data were processed

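RNA was measured on ATH1 arrays in 23 samples. The authors deposited linear intensities from MAS5, per the submitters' processing notes, with each array scaled; the MAS5 version is not given in the sources used here. Labelling used 2-cycle amplification, per the labels' protocols. Groups followed the sample titles. The table held 22810 probe sets, and 64 AFFX controls were set aside. The rule for members was applied to the linear signal. For tests, log2(signal + 10) was fitted with limma 3.58.1 in R 4.3.3 (11 group means, 23 arrays, 12 residual degrees of freedom, trended eBayes), two-sided, over 15983 probe sets above their array's 40th percentile on at least 2 arrays, with Benjamini-Hochberg adjustment over all of them at 0.05. The pseudocount understates changes of low genes. Named genes were the 15 highest ratios, members on marker lists, called members, and 3 each side of the threshold; 4 more were named after their values were seen. The members and lists were chosen with earlier results of these data known. Gene names came from the platform annotation, chromosomes and gene order from RefSeq TAIR10.1. The fit was tested on simulated data with 200 changed probe sets. Alternatives covered pseudocount, filter, normalization, rule thresholds, replicate block and single arrays. A promoter motif search was not run.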

Additional observations from a re-analysis of the deposited data

How the results depend on the processing

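The number of members depends on the rule. It was 127 with a ratio of 1.5, 11 with a ratio of 3, 25 with a minimum CEI signal of 200, 72 against the second highest time-course array, and, in settings chosen after seeing the data, 73 on the SHR-line arrays alone and 120 on the SCR-line arrays alone. Leaving out 1 array gave 38 to 59, the 59 without CEI replicate 3. The share on chromosome 3 was 80.0% with a ratio of 3, 42.6% on the SCR-line arrays alone, and 51.3% to 64.0% when 1 array was left out. The members whose highest time-course array was SHR 12 h numbered 8 to 18 when 1 array was left out. Members called between the lines over 5 times numbered 3 with a pseudocount of 50, 3 with the 20 time-course arrays alone, 3 without the 12 h arrays (chosen after seeing the data), and 3 to 10 when 1 array was left out, the 10 (6 higher, 4 lower) without SCR 6 h replicate 2. At single times the count was 2 with a pseudocount of 1, 3 with a pseudocount of 50 and 0 to 11 when 1 array was left out. Leaving out 1 array gave 0 to 10 members for times against 0 h, 0 to 6 for the F-tests and 0 to 6 for the difference between the lines in the change, and the 10 came without SCR 6 h replicate 2, where the other array of that time stands alone and is assumed to vary like the other groups. Replicate numbers were not taken to pair the samples, since the labels name no shared batch and not every correlation of their deviations was over 0.1. The correlations ran from 0.05 to 0.51 in SHR-line samples and -0.22 to 0.58 in SCR-line samples. With the replicate block, 8 members (4 higher, 4 lower) were called over 5 times, 8 at single times and 5 by the F-tests. The limma adjusted p was 0.163 for AT3G32030 and 0.0505 for AT3G47040. Over all tested probe sets the block called 3798 over 5 times, 4164 at 12 h and 1254 by the SHR-line F-test. Without it these were 3608, 2117 and 3. The median over members at 12 h against 0 h was 0.37 to 0.53 in SHR-line samples and -0.34 to -0.11 in SCR-line samples when 1 array was left out, and the difference between the lines was 0.29 with a pseudocount of 50. No called gene and none of these medians at 12 h changed direction. Members without a call could change sign. At 12 h in SHR-line samples 34 of 38 were above 0 h, but 27 without SHR 12 h replicate 2. The called members over 5 times were all lower when every array was used. They were mixed in direction in some settings, such as without SCR 6 h replicate 2 and with the block. The cause of these shifts was not tested. Near the 40th percentile the signal limits what can be ordered.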

Other observations

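Of the named genes on the marker lists that are no members, STZ, LHW and AUR2 had CEI values outside the time-course range. STZ, a zinc finger factor of stress responses, read 338 ± 80.2 units in CEI cells (SD, n = 3), below all time-course arrays at 1163 to 5795. LHW, a bHLH factor of vascular development, read 1613 ± 90.9 units in CEI cells (SD, n = 3), above all time-course arrays at 235 to 1296. AUR2 read 557 ± 79.3 units in CEI cells (SD, n = 3), above all time-course arrays at 56.0 to 464. The named photosynthesis genes RCA and PRK summed to 29.2 to 69.0 units in CEI cells, 73.5 to 694 in SHR-line samples and 39.0 to 96.3 in SCR-line samples. Taken alone, each of these genes overlapped the time-course range. The root hair expansins EXPA7 and EXPA18 summed to 149 to 432 units in CEI cells, 22.9 to 428 in SHR-line samples and 39.4 to 262 in SCR-line samples, and these ranges overlapped.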
